A study of Mus musculus with 8 samples.

Results

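Aplnr, Kcnh7, Gabrp, Muc4 and Fmod are 5 mouse genes that were picked because their reads lay almost entirely in the GM47544 overexpression libraries of an RNA-seq series. They are 5 of the 21983 gene symbols counted, and each was found by its symbol. The series compares 4 libraries of AML-12 cells, an established mouse hepatocyte line, labelled as overexpressing the gene GM47544 with 4 libraries of AML-12 cells labelled wild type that carried pLKO.1, a lentiviral vector backbone. The labels name no vector for the overexpression. Nothing in the labels tells whether libraries came from separate cultures or whether a line was 1 clone, so each p-value below reflects only the scatter of these libraries, and that scatter may be technical. GM47544 itself was not analysed here, and the labels were therefore not checked by the overexpressed gene. The 5 genes were chosen on the contrast described below, and their own difference is given as a description without a test.

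All 5 genes encode proteins of the cell surface or of the extracellular matrix. Aplnr encodes the apelin receptor, a G protein-coupled receptor of the peptides apelin and Elabela that is best known from endothelium and heart. Kcnh7 encodes a voltage-gated potassium channel of the ERG family, known mainly from neurons. Gabrp encodes the pi subunit of the GABA-A receptor, a chloride channel subunit found mostly in epithelia outside the brain. Muc4 encodes a membrane mucin of mucosal epithelia whose transmembrane part can bind the receptor kinase ERBB2. Fmod encodes fibromodulin, a small leucine-rich proteoglycan that binds collagen fibrils.

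The promoters of these genes differ in sequence composition, and they are shown because the genes share a direction in these libraries. RefSeq sequences (GRCm38.p6) of the 250 bases before the annotated start were matched for 4 of the 5 genes, Kcnh7, Gabrp, Muc4 and Fmod. They are printed 5′ to 3′ on the strand of the gene, with CpG dinucleotides in capitals. The windows are chr2:63184288-63184537 (minus strand) for Kcnh7, chr11:33578958-33579207 (minus strand) for Gabrp, chr16:32735636-32735885 (plus strand) for Muc4 and chr1:134037004-134037253 (plus strand) for Fmod.
Kcnh7: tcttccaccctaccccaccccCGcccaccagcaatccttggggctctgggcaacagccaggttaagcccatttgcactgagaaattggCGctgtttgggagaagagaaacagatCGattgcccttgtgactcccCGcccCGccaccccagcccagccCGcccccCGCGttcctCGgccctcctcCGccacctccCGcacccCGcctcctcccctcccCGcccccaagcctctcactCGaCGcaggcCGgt
Gabrp: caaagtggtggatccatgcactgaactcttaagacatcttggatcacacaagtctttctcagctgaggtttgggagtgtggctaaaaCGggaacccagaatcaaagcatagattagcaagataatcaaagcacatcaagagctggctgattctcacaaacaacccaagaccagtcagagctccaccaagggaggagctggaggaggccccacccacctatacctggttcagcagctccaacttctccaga
Muc4: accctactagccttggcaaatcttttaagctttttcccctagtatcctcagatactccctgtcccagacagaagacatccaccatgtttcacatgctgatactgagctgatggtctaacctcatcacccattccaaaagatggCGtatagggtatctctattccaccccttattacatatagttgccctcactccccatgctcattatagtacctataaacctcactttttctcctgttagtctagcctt
Fmod: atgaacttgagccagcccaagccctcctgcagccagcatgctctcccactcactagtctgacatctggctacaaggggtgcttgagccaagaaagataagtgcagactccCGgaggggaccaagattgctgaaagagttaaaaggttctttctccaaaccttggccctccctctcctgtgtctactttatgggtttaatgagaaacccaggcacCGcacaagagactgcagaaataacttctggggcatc
The Kcnh7 window held 16 CpG at 67.6% G and C, the Gabrp and Muc4 windows 1 each at 49.2% and 43.6%, and the Fmod window 2 at 51.2%.

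The windows had a median of 15 CpG for the genes tested and of 6 over all 32851 windows. Fewer CpG than in the Kcnh7 window were found in 50.3% of 11654 windows of genes tested, fewer than in Fmod in 3.99%, and fewer than in Gabrp or Muc4 in 1.34%. Over all windows these shares were 74.6% for Kcnh7, 18.8% for Fmod and 7.87% for Gabrp and Muc4. Short motifs were searched as exact letters on both strands. The GC box GGGCGG occurred 4 times in the Kcnh7 window and in none of the other 3, against 57.5% of the windows of genes tested and 32.7% of all 32851 windows. The TATA box core TATAA occurred 2 times in the Muc4 window, once on each strand, against 12.4% of windows of genes tested and 22.8% of all windows. The CCAAT box CCAAT occurred 1 time, in Kcnh7, against 35.6% and 33.8%. The AP-1 site TGACTCA and the HNF1 motif GTTAAT were in none of the 4 windows, against 3.42% and 4.23% of windows of genes tested and 4.46% and 6.43% of all windows. These matches describe letters in this window only.

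Library totals lay between 11016907 and 17338310 counts in the overexpression libraries and between 12256376 and 18965662 in the control libraries. Levels are given as CPM, read counts brought to a common library size that was scaled by trimmed means (TMM). Of 11520 genes tested, 7417 (64.4%) were called at an adjusted p below 0.05, 3720 (32.3%) higher and 3697 (32.1%) lower (edgeR's quasi-likelihood test, Benjamini-Hochberg). The median log2 fold change of all genes tested was 0.000406, and scaling by library totals alone shifted it by 0.128. Control library 3 was at 22.2 on the first principal component, against -50.4 to -43.4 for the overexpression libraries and 49.98 to 60.7 for the other control libraries. Without control library 3, 4498 genes were called higher and 4503 lower. Of 18 hepatocyte markers, 14 were tested, of which 4 rose and 5 fell, and their summed level was 4677 to 5075 CPM in overexpression and 4943 to 7686 CPM in control libraries. The albumin gene Alb rose to 267 ± 28.2 CPM in overexpression libraries, against 22.3 ± 3.85 CPM in controls, and the transthyretin gene Ttr fell to 279 ± 24.2 CPM, against 1321 ± 239 CPM in controls (SD, n = 4 each). The fibrinogen genes Fga and Fgb rose by 3.17 and 2.89 on the log2 scale, and the antitrypsin genes Serpina1a and Serpina1b fell by 1.69 and 1.15. The hepatocyte factor gene Hnf4a was not called, Ahsg had 0 overexpression and 3 control counts, and Apoa2 had 1 count in each group.

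Gabrp, the GABA-A receptor subunit, had the highest level of the 5 genes in both groups. Gabrp (ENSMUSG00000020159.8, chromosome 11, 33550781 to 33578959, GRCm38, minus strand, 11 exon blocks) had 77.9, 122, 166 and 157 CPM in overexpression libraries 1 to 4. In control libraries 1 to 4 the level was 5.75, 6.92, 11.2 and 6.53 CPM. The lowest overexpression library was 6.96-fold above the highest control library, with overexpression library 1 the lowest of its group and control library 3 the highest of its own. Gabrp had 7142 overexpression counts and 458 control counts. Their ratio at equal depth was 16.8 (95% exact interval 15.3 to 18.5), where the interval covers counting error only, and the fitted log2 fold change was 4.09 (SE 0.27).

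Kcnh7, the potassium channel gene, was the next in CPM. Kcnh7 (ENSMUSG00000059742.10, chromosome 2, 62693414 to 63184287, GRCm38, minus strand, 16 exon blocks) had 51.4, 60.3, 65.5 and 65.2 CPM in overexpression libraries 1 to 4 and 1.59, 1.61, 2.50 and 1.46 CPM in control libraries 1 to 4. The groups lay 20.5-fold apart at their nearest libraries, and control library 3 was again the highest control. Kcnh7 had 3319 overexpression and 107 control counts, a ratio of 33.4 (95% exact interval 27.6 to 40.9), with a fitted log2 fold change of 5.06 (SE 0.18).

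Aplnr, the apelin receptor gene, ordered the overexpression libraries differently. Aplnr (ENSMUSG00000044338.9, chromosome 2, 85136225 to 85139923, GRCm38, plus strand, 1 exon block) had 18.2, 13.8, 13.2 and 16.2 CPM in overexpression libraries 1 to 4. In control libraries 1 to 4 it had 0.265, 0.483, 0.562 and 0.230 CPM, from 3, 9, 9 and 3 counts. Overexpression library 1 was the highest for Aplnr and the lowest for Gabrp, Kcnh7 and Muc4, and the groups did not overlap. Aplnr had 830 overexpression and 24 control counts, a ratio of 37.3 (95% exact interval 24.9 to 58.5), with a fitted log2 fold change of 5.21 (SE 0.25).

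Muc4, the membrane mucin gene, had 28 control counts, 12 of them in control library 4. Muc4 (ENSMUSG00000079620.13, chromosome 16, 32735886 to 32782391, GRCm38, plus strand, 27 exon blocks) had 8.75, 10.4, 15.1 and 14.1 CPM in overexpression libraries 1 to 4. In control libraries 1 to 4 it had 0.354, 0.375, 0.312 and 0.922 CPM. The groups did not overlap, and control library 4 was the highest control while control library 3 was the lowest. Muc4 had 652 overexpression counts, the ratio was 25.1 (95% exact interval 17.2 to 38.1), and the fitted log2 fold change was 4.63 (SE 0.31).

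Fmod, the proteoglycan gene, was the lowest of the 5 in both groups. Fmod (ENSMUSG00000041559.7, chromosome 1, 134037254 to 134048277, GRCm38, plus strand, 3 exon blocks) had 2.74, 2.64, 2.88 and 3.05 CPM in overexpression libraries 1 to 4, from 32, 48, 33 and 41 counts. Its control level was 0, 0.161, 0 and 0 CPM in control libraries 1 to 4, and the 3 control counts all lay in control library 2. The ratio of 154 overexpression counts to 3 control counts at equal depth was 55.3 (95% exact interval 18.6 to 271), and the fitted log2 fold change was 5.58 (SE 0.51). Without control library 2 no control count remained, and Fmod was at least 37.8-fold higher in the overexpression libraries against a floor of 3 counts over the remaining control libraries.

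**Figure D1:**
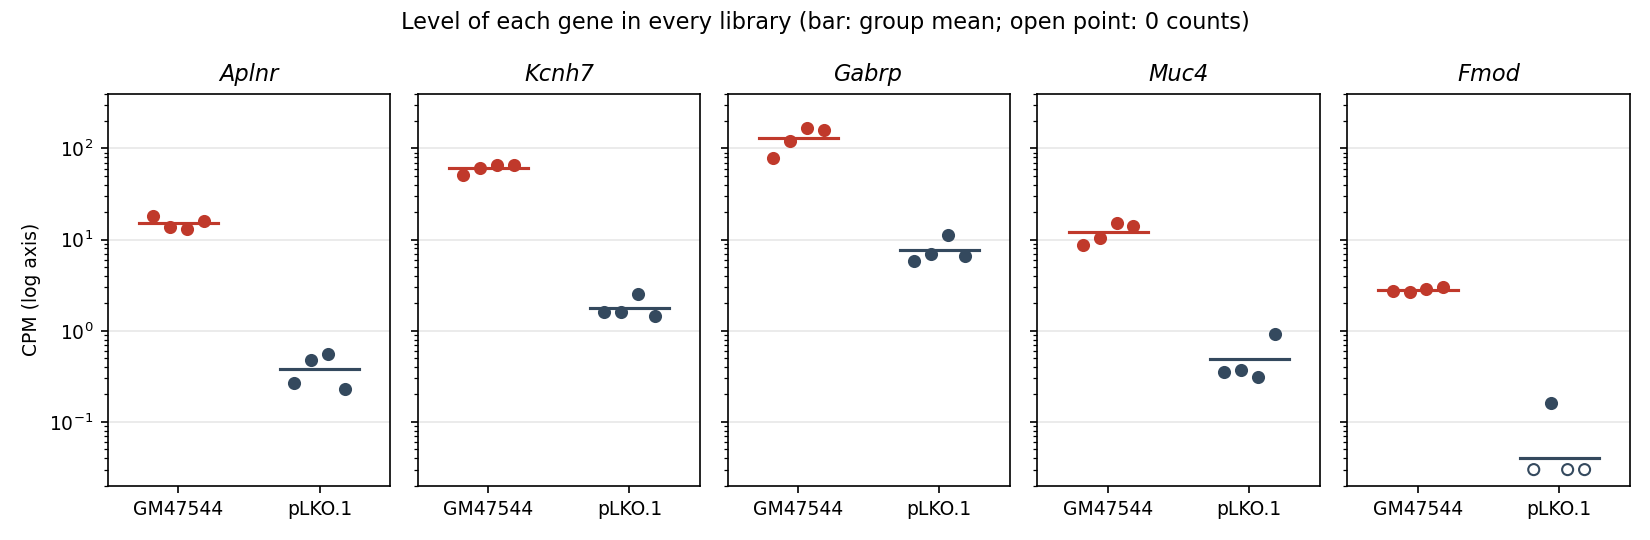
CPM on a log axis for each gene in 4 GM47544 overexpression libraries (left, red) and 4 pLKO.1 control libraries (right, blue-grey), with a bar at the group mean and open points for libraries with 0 counts, which are placed at the foot of the axis. Each overexpression library lies above each control library for all 5 genes, and 3 control libraries had no Fmod count.

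The libraries of the groups did not overlap for any of the 5 genes, with the overexpression libraries above, as held for 28.5% of all genes tested. All 5 were also called higher, as were 32.3% of genes tested, where calls in either direction made up 64.4%. Called genes with a log2 fold change at least that of Gabrp, the lowest of the 5, made up 0.26% of genes tested. The genes were picked on this contrast, so nothing is read from these counts. Among the overexpression libraries, the level per kilobase of exon was 38.7 ± 11.9 RPKM (CPM per kilobase) for Gabrp, 4.14 ± 0.623 for Aplnr, 3.98 ± 0.433 for Kcnh7, 1.03 ± 0.256 for Muc4 and 0.856 ± 0.0536 RPKM for Fmod (SD, n = 4 each). Aplnr and Kcnh7 overlapped, with 3.56 to 4.91 and 3.37 to 4.30 RPKM, and so did Muc4 and Fmod, with 0.744 to 1.28 and 0.800 to 0.924 RPKM. In the control libraries Gabrp was at 2.25 ± 0.723 RPKM, Kcnh7 at 0.118 ± 0.0314, Aplnr at 0.104 ± 0.0439, Muc4 at 0.0417 ± 0.0245 and Fmod at 0.0122 ± 0.0243 RPKM (SD, n = 4 each). In these bulk libraries, fewer cells that express a gene and less of its RNA per cell cannot be told apart.

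The 5 genes differed in the spread of their CPM over the overexpression libraries, a spread that their choice did not use. The coefficient of variation (CV) of the CPM over these 4 libraries was 30.7% for Gabrp, 24.9% for Muc4, 15.0% for Aplnr, 10.9% for Kcnh7 and 6.26% for Fmod. Counting error alone would give a CV of 2.41% for Gabrp, 7.97% for Muc4, 7.06% for Aplnr, 3.53% for Kcnh7 and 16.4% for Fmod. Fmod was thus the only one of the 5 whose spread lay under its counting error, so its low CV does not show that it was evenly expressed. Among genes within 1.5-fold of the same level, the Gabrp CV was above those of 99.8% of 1909 genes and the Muc4 CV above those of 98.2% of 1534 genes. For Kcnh7 that share was 93.1% of 2750 genes, for Aplnr 88.1% of 1792 genes and for Fmod 2.93% of 649 genes. Overexpression library 3 was the highest for Gabrp, Kcnh7 and Muc4, and the lowest for Aplnr. These ranks rest on small gaps and were not set against counting error. Libraries 3 and 4 were at 65.5 and 65.2 CPM for Kcnh7 and at 15.1 and 14.1 CPM for Muc4. For Aplnr, libraries 3 and 2 were at 13.2 and 13.8 CPM.

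Residual control reads differed in level among the control libraries, by amounts that were not set against counting error. Gabrp had 458 control counts, against 107, 24, 28 and 3 for Kcnh7, Aplnr, Muc4 and Fmod. As a percentage of the overexpression mean, Gabrp was at 4.39%, 5.29%, 8.55% and 4.99% in control libraries 1 to 4, and Kcnh7 at 2.63%, 2.66%, 4.13% and 2.41%. Aplnr was at 1.73%, 3.15%, 3.67% and 1.504%, and Muc4 at 2.93%, 3.11%, 2.59% and 7.64%. Control library 3, the control nearest the overexpression libraries on the first principal component, was the highest control for Gabrp, Kcnh7 and Aplnr, the lowest for Muc4, and had no Fmod count. Without control library 3 the fitted log2 fold change was 4.31 for Gabrp, 5.24 for Kcnh7, 5.39 for Aplnr, 4.43 for Muc4 and 5.15 for Fmod.

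So uneven a split was rare in the whole table and was found in both directions. Of 11389 genes with at least 50 summed overexpression counts, 25 (0.22%) had control counts of at most 5% of them at equal depth. Fmod, Aplnr, Kcnh7 and Muc4 were among these 25, at 1.81%, 2.68%, 2.99% and 3.98%, and Gabrp lay outside at 5.95%. Just inside the limit were Rdh19 at 4.80% and Ftcd at 4.68%, and just outside it Hao2 at 5.14% and Ceacam1 at 5.24%. In the other direction, 36 of 11180 genes with at least 50 control counts (0.322%) had overexpression counts of at most 5% of them. None of the 25 genes had 0 control counts, while 12 of the 36 had 0 overexpression counts. Over the 25 genes together, control libraries 1 to 4 held 2.39%, 2.03%, 2.78% and 1.86% of the overexpression level. The promoter windows of this set, matched for 18 of its genes, held at most 3 CpG in 65% of 20 windows. That share was 17.2% of 29 windows for the genes split to the controls, 11.1% of the windows of genes tested and 37.8% of all 32851 windows. The set was chosen by its counts and holds genes that are near silent in the controls, so these shares are descriptions.

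**Figure D2:**
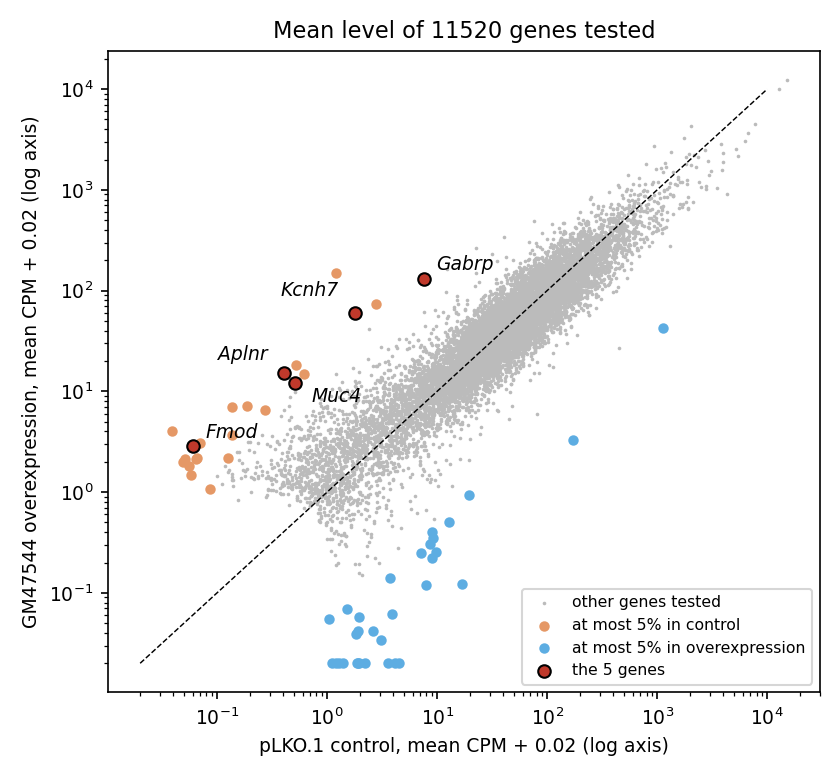
Mean CPM plus 0.02 in the overexpression libraries (vertical, log axis) against that in the control libraries (horizontal, log axis) for 11520 genes tested, with the 5 genes in red and black outline, genes whose control counts were at most 5% of their overexpression counts in orange, and the reverse in light blue. Aplnr, Kcnh7, Muc4 and Fmod lie among the orange genes far above the dashed line of equal levels, and Gabrp lies just beside that set.

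Both peptide ligands of the apelin receptor rose, at low levels. A list of 19 genes of the apelin axis, which leaves out Aplnr, held 16 tested genes, of which 6 rose and 6 fell (median log2 fold change -0.09). Over all genes tested, 32.3% rose and 32.1% fell, and these shares are the background for each list and marker set below. Apln, which encodes apelin, had 1.03, 1.05, 0.959 and 1.34 CPM in overexpression libraries 1 to 4 and 0.354, 0.375, 0.500 and 0.615 CPM in control libraries 1 to 4. Its groups did not overlap, and the log2 fold change was 1.24 (SE 0.32, adjusted p = 0.00465, edgeR). Apela, which encodes Elabela, was at 3.07 ± 0.611 CPM in overexpression and 1.25 ± 0.148 CPM in control libraries (SD, n = 4 each), with log2 fold change 1.31 (SE 0.23, adjusted p = 0.000368, edgeR). Prep, a prolyl peptidase, and Furin, a proprotein convertase, fell by 0.49 and 0.65 on the log2 scale. The arrestin gene Arrb1 rose by 0.56 and the receptor kinase gene Grk6 fell by 0.79. The angiotensin receptor genes Agtr1a and Agtr1b, relatives of Aplnr, were not tested, Agtr1a with 4 overexpression counts and 1 control count and Agtr1b with 0 in all libraries.

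Endothelial markers, which bear on Aplnr, summed to 12.0 to 13.9 CPM in overexpression and 8.31 to 11.2 CPM in control libraries. Of 12 listed, 4 were tested, of which Cdh5 and Flt1 rose by 3.36 and 0.95 on the log2 scale and Eng fell by 1.62. The others were below the count filter or not called. Pecam1 had 15 overexpression and 9 control counts, Robo4 13 and 4, Emcn 8 and 2, Tie1 1 and 3, Kdr 0 and 1, Tek 0 and 3, and Erg none. The part of these markers in the Aplnr values was not tested.

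Kcnh6, another ERG channel gene, also rose. The list of 15 channel and accessory subunit genes had 14 in the table and 3 tested, of which 1 rose and 0 fell (median log2 fold change 0.30). The shares over all genes tested were 32.3% and 32.1%. Kcnh6 had 3.09, 5.34, 6.63 and 7.67 CPM in overexpression libraries 1 to 4 and 0.354, 0.858, 0.875 and 0.922 CPM in control libraries 1 to 4. The groups did not overlap, and library 1 was the lowest of each group. The fitted log2 fold change of Kcnh6 reached 2.87 (SE 0.33, adjusted p = 1.42e-05, edgeR). Kcnh2, the ERG channel gene known from heart, had 56 overexpression and 15 control counts, a ratio of 4.02 (95% exact interval 2.24 to 7.66), and did not pass the count filter. With no count filter 3 genes of the list were called, with Kcnh2 and Kcnq1 added to Kcnh6, and 2 were called, Kcnh6 and Kcnh2, without overexpression library 1 or without control library 1. Kcnq1, named after its values were seen, encodes a cardiac and epithelial potassium channel and had 42 overexpression and 7 control counts. Kcnh1, Kcnh3 and Kcnh4, further EAG and ELK channel genes, had 2, 11 and 1 overexpression counts and 0, 4 and 0 control counts, and Kcnh5 and Kcnh8 had none.

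Neuronal markers, which bear on Kcnh7, summed to 22.0 to 28.5 CPM in overexpression and 6.145 to 8.997 CPM in control libraries. Of 10 listed, 2 were tested: the synaptic gene Snap25 rose (adjusted p = 4.59e-06, edgeR) and Syp fell. Snap25 was at 22.4 ± 2.00 CPM in overexpression and 3.84 ± 1.89 CPM in control libraries (SD, n = 4 each). It made up most of the summed level in the overexpression libraries. Nefl and Nefm had no count, and Tubb3 had 0 overexpression and 2 control counts. The part of these markers in the Kcnh7 values was not tested.

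Gabre and Gad1 rose in the GABA list, in which 14 genes had no count in any library. Of 33 genes listed, 19 had counts and 10 were tested, of which 4 rose and 4 fell (median log2 fold change 0.10). Among all genes tested 32.3% rose and 32.1% fell. Gabre, which encodes the epsilon subunit, had 29.4, 34.3, 34.0 and 32.2 CPM in overexpression libraries 1 to 4 and 5.31, 5.09, 9.37 and 6.68 CPM in control libraries 1 to 4. The groups did not overlap, and the log2 fold change was 2.29 (SE 0.18, adjusted p = 1.05e-06, edgeR). Gad1, the enzyme that makes GABA, had 110 overexpression and 8 control counts. Its level was 2.08 ± 0.866 CPM in overexpression and 0.137 ± 0.0537 CPM in control libraries (SD, n = 4 each), with log2 fold change 3.83 (SE 0.48, adjusted p = 2.65e-05, edgeR). Among the genes without a count were the subunit genes Gabra2, Gabra4, Gabra5, Gabra6, Gabrb2, Gabrg1 and Gabrr1. Gabrb1 had 29 overexpression and 9 control counts and Gabrd 11 and 22, while Gabra3, Gabrg3, Gabrq, Gabrr2 and Gabrr3 had at most 4 in either group. Abat, which degrades GABA, had 17 overexpression and 9 control counts. Slc6a12, a betaine and GABA transporter, fell by 1.85 on the log2 scale (adjusted p = 4.08e-05, edgeR). Slc6a13, another GABA transporter gene, rose by 0.53 with overlapping groups (adjusted p = 0.0147, edgeR). Gabbr1, a GABA-B receptor subunit gene, rose by 0.76 (adjusted p = 9.24e-05, edgeR). Slc6a13 and Gabbr1 were named after their values were seen. Gabarap, Gabarapl1 and Gabarapl2, named for the receptor and known mainly from autophagy, fell by 1.13, 1.18 and 0.92.

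Several mucin genes rose, while Muc1 fell. The list of 34 genes of mucins, mucin glycosylation and ERBB partners had 33 in the table and 21 tested, of which 11 rose and 5 fell (median log2 fold change 0.29). Beside these counts, 32.3% of all genes tested rose and 32.1% fell. Muc13, a membrane mucin gene, had 1.03, 2.31, 2.70 and 2.53 CPM in overexpression libraries 1 to 4 and 0, 0.107, 0 and 0.0768 CPM in control libraries 1 to 4. With 119 overexpression and 3 control counts its ratio was 42.8 (95% exact interval 14.3 to 210.3), and its adjusted p was 1.27e-05 (edgeR). The log2 fold change of Muc13 was 5.19, and 5.99 without control library 2. Muc6, a secreted mucin gene, was at 3.58 ± 1.93 CPM in overexpression and 0.298 ± 0.262 CPM in control libraries (SD, n = 4 each; adjusted p = 0.000121, edgeR), with a log2 fold change of 3.49, and of 4.14 without control library 3. Muc5b, a gel-forming secreted mucin gene, was at 164 ± 17.8 CPM in overexpression and 42.2 ± 6.23 CPM in control libraries (SD, n = 4 each; log2 fold change 1.96, adjusted p = 3.29e-07, edgeR). Muc5ac, of the same class, rose by 1.39, whereas the membrane mucin gene Muc1 fell by 0.71 (adjusted p = 0.00194 and 0.00386, edgeR). Muc20 had 28 overexpression and 5 control counts, Muc3 4 and 8, Muc3a 2 and 2, and Muc16 0 and 1, and Muc2 and Muc15 had none. Erbb2, the kinase that Muc4 can bind, rose by 0.49. Erbb3, its relative, was at 38.3 ± 2.45 CPM in overexpression and 40.9 ± 2.73 CPM in control libraries (SD, n = 4 each). It was not called, with a log2 fold change of -0.096 (adjusted p = 0.464, edgeR) that was 0.029 with scaling by library totals alone. Galnt3 and C1galt1, which start and extend mucin O-glycans, rose by 1.43 and 1.04, and St3gal1, which adds sialic acid to them, fell by 0.44.

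Biliary and mucosal epithelial markers, which bear on Muc4 and Gabrp, summed to 4594 to 5218 CPM in overexpression and 2897 to 4237 CPM in control libraries. Of 12 listed, 7 were tested, of which 2 rose, Spp1 and Ehf, and 3 fell, among them Muc1, which the mucin list also holds. The median log2 fold change of the 7 tested was -0.18, so the higher sum does not stand for most of these markers. Epcam had 0 overexpression counts and 1 control count, and Cldn4 had 0 and 11. The keratin gene Krt7 was at 292 ± 15.5 CPM in overexpression and 327 ± 81.8 CPM in control libraries (SD, n = 4 each) and was not called. The part of these markers in the Muc4 and Gabrp values was not tested.

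Bgn and Podn rose among the relatives of fibromodulin. The list of 28 proteoglycans, matrix partners and modifying enzymes had 21 genes with counts and 11 tested, of which 5 rose and 4 fell (median log2 fold change 0.59). Again, 32.3% of all genes tested rose and 32.1% fell. Bgn, which encodes biglycan, had 2.57, 2.64, 2.01 and 2.61 CPM in overexpression libraries 1 to 4 and 0, 0.375, 0 and 0.154 CPM in control libraries 1 to 4. As for Fmod, control library 2 was the highest control, and the log2 fold change was 3.96 (SE 0.51, adjusted p = 3.18e-05, edgeR). That library held 7 of the 9 control counts of Bgn, and without it the log2 fold change was 5.39 (adjusted p = 3.04e-05, edgeR). Podn, which encodes podocan, was at 3.06 ± 0.106 CPM in overexpression and 1.49 ± 0.348 CPM in control libraries (SD, n = 4 each; adjusted p = 0.00146, edgeR). Chad, which encodes chondroadherin, had 82 overexpression and 61 control counts and was not called (adjusted p = 0.17, edgeR). Prelp had 29 overexpression and 3 control counts, a ratio of 10.4 (95% exact interval 3.23 to 53.5), below the count filter. Podnl1 had 30 overexpression and 14 control counts, Omd 18 and 10, Ogn 12 and 10, Ecm2 7 and 6, Nyx 6 and 18, Aspn 5 and 3, Optc 1 and 4, and Dcn, the decorin gene, 1 and 2. Lum, Kera and Epyc had no count. Tgfb3, a growth factor gene of the TGF-beta family, rose by 1.31 and the galactosyltransferase gene B4galt1 by 0.71. Tpst1 and Tpst2, which sulfate tyrosines of secreted proteins, fell by 1.10 and 0.63.

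Fibroblast and stellate cell markers, which bear on Fmod, summed to 11.6 to 19.9 CPM in overexpression and 5.94 to 7.08 CPM in control libraries. Of 14 listed, 3 were tested, of which 2 rose, Des and Col1a1, and 0 fell. Col1a2, Col3a1, Lum and Lrat had no count, and Acta2 had 4 overexpression and 2 control counts. The part of these markers in the Fmod values was not tested. Of 10 macrophage markers, 4 were tested, of which 0 rose and 2 fell, with 602 to 750.3 CPM in overexpression and 830.2 to 1294 CPM in control libraries, and Adgre1, C1qa, C1qb and Clec4f had no count.

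Both tested genes beside Kcnh7 rose, while tested neighbours of Aplnr, Muc4 and Fmod were called in both directions. On chromosome 2, which holds Kcnh7, 30.5% of tested genes were called higher and 34.6% lower. With so few genes beside Kcnh7, nothing is read from this count. Gca, which encodes grancalcin, overlaps the 3′ end of Kcnh7 on the opposite strand and was at 218 ± 14.4 CPM in overexpression and 41.8 ± 14.0 CPM in control libraries (SD, n = 4 each). The fitted log2 fold change of Gca reached 2.38 (SE 0.19, adjusted p = 1.01e-06, edgeR). Ifih1, a sensor of double-stranded RNA that lies 47159 bases away, was at 18.2 ± 3.14 CPM in overexpression and 4.44 ± 0.753 CPM in control libraries (SD, n = 4 each; adjusted p = 1.77e-06, edgeR). Fap had 1 overexpression count and 0 control counts. Gca and Kcnh7 share 696 exon bases, 4.57% of those of Kcnh7, and Muc20 and Muc4 share 627, 5.33% of those of Muc4. The labels do not record a strand setting for the counting, and reads in these shared stretches cannot be told apart.

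Within 500 kb of Aplnr, 2 of 13 tested neighbours rose and 6 fell (median log2 fold change -0.25). Chromosome 2 as a whole had 30.5% of tested genes called higher and 34.6% lower. Lrrc55, an auxiliary subunit gene of potassium channels 22411 bases away, was at 1.65 ± 0.498 CPM in overexpression and 0.356 ± 0.190 CPM in control libraries (SD, n = 4 each; log2 fold change 2.15, adjusted p = 0.000499, edgeR). Tnks1bp1 and the histone chaperone gene Ssrp1 fell by 0.46 and 0.44. Gabrp had 1 tested neighbour, the nucleolar gene Npm1, which fell by 0.46. Of tested genes on chromosome 11, 27.7% were called higher and 32.4% lower. Kcnip1, which encodes a potassium channel-interacting protein, had 22 overexpression and 2 control counts, a ratio of 11.9 (95% exact interval 2.91 to 104), and the growth factor gene Fgf18 had 6 and 2.

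Around Muc4, 7 of 16 tested neighbours rose and 2 fell (median log2 fold change 0.13). On chromosome 16, 39.0% of tested genes were called higher and 25.9% lower. The kinase gene Tnk2 and the transferrin receptor gene Tfrc had log2 fold changes of -0.17 and -0.15 and were not called (adjusted p = 0.279 and 0.445, edgeR), although Tnk2 was called lower without control library 3 (adjusted p = 0.00357). Rubcn, a regulator of autophagy, rose by 0.31 (adjusted p = 0.0189, edgeR; 0.00348 to 0.0706 over 15 alternatives), and Smbd1 had 2 overexpression counts and 0 control counts. Around Fmod, 4 of 11 tested neighbours rose and 7 fell (median log2 fold change -0.46). On chromosome 1 these shares were 35.3% higher and 30.4% lower. Btg2, an antiproliferative gene 26893 bases away, was at 56.7 ± 5.10 CPM in overexpression and 114 ± 7.62 CPM in control libraries (SD, n = 4 each; adjusted p = 9.24e-06, edgeR). Chit1 had 0 overexpression and 2 control counts, and the proteoglycan genes Prelp and Optc lie on the other side, Prelp at 115840 bases. For comparison, the median log2 fold change was -0.057 on chromosome 2, -0.046 on chromosome 11, 0.14 on chromosome 16 and 0.046 on chromosome 1.

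**Figure D3:**
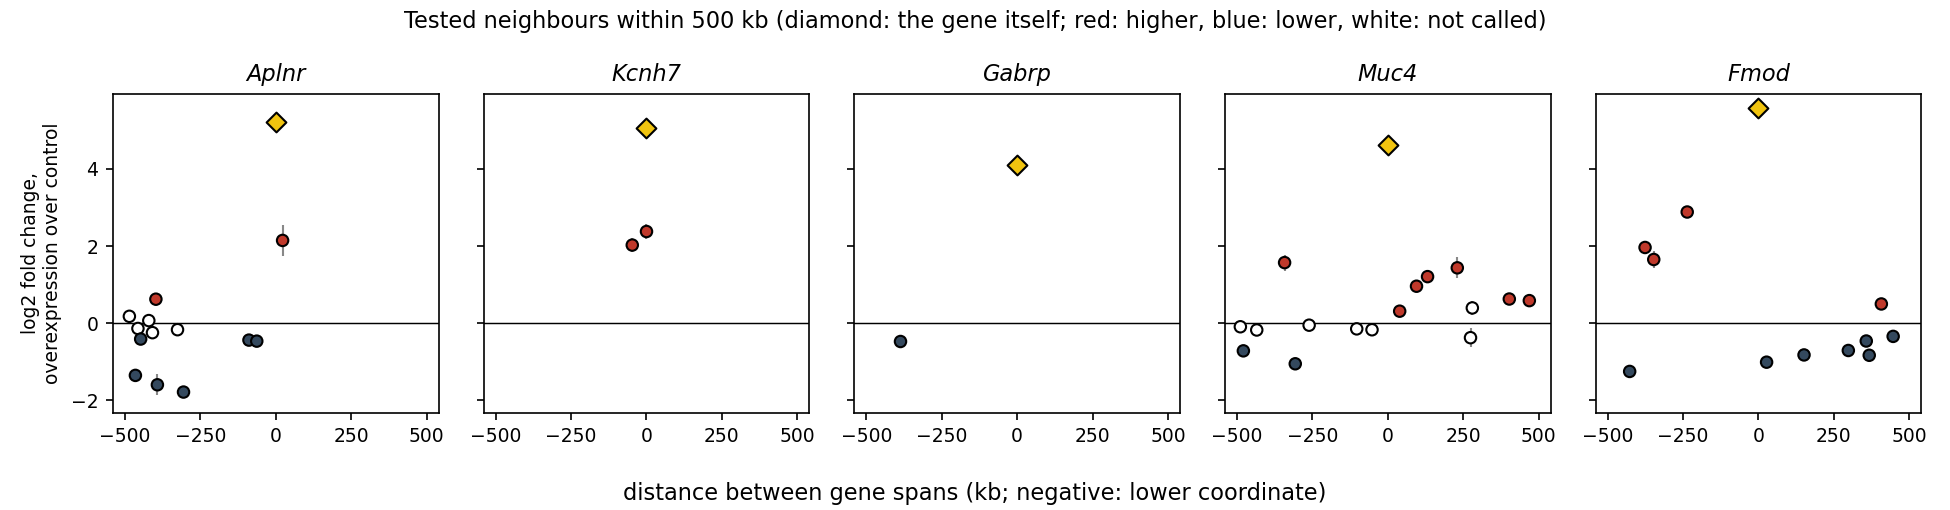
Log2 fold change of overexpression over control with its SE for tested genes within 500 kb of each of the 5 genes, against the distance between gene spans in kb, with the gene itself as a yellow diamond at 0. Red and dark blue points were called higher and lower, and white points were not called. Both neighbours of Kcnh7 are red, and the panels of Aplnr, Muc4 and Fmod hold red and dark blue points.

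Genes with long transcripts had higher fold changes than others in this contrast, which touches Kcnh7 and Muc4. Among 1051 tested genes within 1.5-fold of the exon length of Kcnh7 (15226 bases), the median log2 fold change was 0.63, and 68.4% were called higher. Among 2032 genes near the exon length of Muc4 (11757 bases) the median was 0.48, and 59.3% were called higher. The medians were -0.10, -0.14 and -0.15 near the lengths of Aplnr, Gabrp and Fmod (3699, 3377 and 3306 bases). Related genes with exon lengths near that of Muc4 include Muc5b, Muc5ac, Muc6 and Arrb1 (14964, 10752, 9361 and 11175 bases), which rose. Prep and Furin (10933 and 9178 bases), which fell, are also near it. The part of length in the values of the 5 genes and of these related genes was not tested.

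Genes with the most similar profiles were found by the Euclidean distance of log2(CPM + 0.1) over the 8 libraries. They are described without a test because the pattern chose them. The values were not centred, so the distance reflects the level of a gene as well as its difference between the groups. Close to Aplnr were Hao2, a peroxisomal hydroxyacid oxidase gene, and the adhesion molecule gene Ceacam1, at distances of 1.97 and 2.07. Close to Kcnh7 were Gimap8 and the collagen gene Col12a1, at 1.37 and 2.92. Around Gabrp lay Afm, which encodes afamin, and the glucuronosyltransferase gene Ugt2b35, at 1.81 and 2.19. Muc4 was closest to Hao2, the retinol dehydrogenase gene Rdh1 and the transcription factor gene Creb3l1, at 1.76, 1.94 and 2.03. The nearest to Fmod were Muc13, Bgn and the nucleoside transporter gene Slc28a3, at 1.63, 1.69 and 1.88. Among the 5 genes themselves, Aplnr and Muc4 were the closest pair, at 2.15, and Gabrp and Fmod the farthest, at 16.1. Gabrp had the highest and Fmod the lowest level of the 5 in both groups, and the distance includes this difference in level. Ceacam1, Ugt2b35 and Rdh1 have near-identical relatives, and reads could be split among these.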

How the data were processed

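RNA-seq of 8 AML-12 libraries (NEBNext Ultra kit, per the labels' protocols) was deposited by the authors as 1 table of raw read counts per gene. FastQC, STAR, HTSeq and mm10 are named in the submitters' processing notes, with no annotation or strand setting recorded. Genes were placed by symbol on GENCODE M21 (21926 of 21983 matched). Counts were filtered (filterByExpr, minimum count 10), scaled by TMM and tested with edgeR 4.0.16 in R 4.3.3 by the quasi-likelihood test, with Benjamini-Hochberg adjustment over 11520 genes and calls below 0.05. The fit was tested on simulated data with few changed genes, all raised, and the same scatter for every gene. That setting does not cover a contrast in which most genes were called, as here. CPM uses TMM library sizes, RPKM merged exon lengths, and ratios of counts at equal depth an exact 95% binomial interval, which covers counting error only. DESeq2 1.42.0, limma-voom (limma 3.58.1), other filters and scalings, a prior count of 2 and leaving out each library were alternatives.

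The members and lists were chosen with earlier results of these data known. Named genes were the 5 members, list genes called (up to 6 per list by smallest p), ligands and direct relatives whatever their value, the 2 nearest detected genes on each side within 500 kb, and the 3 nearest profiles per member. Genes of Gm or Rik type were not named, and some genes that the rule picked are not reported here. No 2 libraries of a group agreed within sampling noise (chi-square per gene 2.41 to 102).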

Additional observations from a re-analysis of the deposited data

Results flagged for a closer look

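Among 108 groups of 4 libraries examined, 9 had 1 library far from the other 3 by Dixon's criterion. Its rate of about 1 in 20 groups holds for independent, normally spread values. Low counts and genes picked for like profiles do not meet this, so the 9 are not set against that rate. For Kcnh7, control library 3 was high at 2.50 CPM, against 1.46 to 1.61 CPM in the other controls. For Muc4, control library 4 was high at 0.922 CPM, against 0.312 to 0.375 CPM. For Fmod, control library 2 was at 0.161 CPM and the other controls at 0, a pattern that the criterion always flags. Bgn was low in overexpression library 3 at 2.01 CPM, against 2.57 to 2.64 CPM. Creb3l1 was low in overexpression library 1 at 5.83 CPM, against 8.04 to 8.37 CPM. Tgfb3 was low in overexpression library 2 at 35.4 CPM, against 42.4 to 43.6 CPM. Control library 3 was high for Hao2 at 0.812 CPM, against 0.354 to 0.429 CPM, and for Ifih1 at 5.56 CPM, against 3.98 to 4.13 CPM. Kcnh6 was low in control library 1 at 0.354 CPM, against 0.858 to 0.922 CPM.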

How the results depend on the processing

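Among the summary values, 10 moved. The channel list had 1 gene called higher, 3 with no count filter, and 1 to 2 with single libraries left out. The Fmod log2 fold change of 5.58 was 3.96 with a prior count of 2 and 5.15 to 8.26 with single libraries left out, the last without control library 2, where no control count remained. The 25 genes split to the overexpression libraries numbered 10 at a limit of 2%, 66 at 10% and 53 with at least 20 counts, and the 36 split to the controls 22 at 2% and 56 at 10%. Of the 5 genes, 1 met the limit of 2% and 5 that of 10%, and 5 met the limit of 5% without control library 3. Among single genes, 7 values changed their direction or their call. The Erbb3 log2 fold change turned to 0.029 with library totals alone. Rubcn lost its call in 5 of 15 alternatives, and Tnk2 gained one without control library 3. The other 274 summary values were counts of genes that stayed within 1.5-fold, or fold changes of the 5 genes that stayed within the spread of the libraries. The other 727 values of single genes kept their direction and their side of the threshold. The 1.5-fold limit is wide: without control library 3, 4498 genes were called higher and 4503 lower, against 3720 and 3697.

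Same-numbered libraries of the groups did not deviate together (correlations 0.0227, -0.0110, -0.0773 and -0.119). Differently numbered libraries had correlations of -0.0738 to 0.128. These values cannot exclude that libraries were prepared in pairs, and the main fit did not pair them. With the replicate number as a block, 3682 genes were called higher and 3447 lower, against 3720 and 3697. Control reads of Aplnr, Muc4 and Fmod are few, and depth limits their ratios as the intervals show.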
